A study of Mus musculus with 6 samples.

Results

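The genes described here belong to the hypoxia-inducible factor 1 (HIF-1) pathway, measured in mouse Foxp3+ iTreg, regulatory T cells induced in culture, after exposure to prostaglandin E2 (PGE2) or to vehicle. The members were taken by gene name from the annotated genes of 6 RNA sequencing libraries, and they are 10 of 47643 annotated genes. They are Hif1a and Arnt, which encode the subunits of HIF-1, the oxygen-dependent hydroxylase genes Egln1, Egln2, Egln3 and Hif1an, the ubiquitin ligase gene Vhl, and Bnip3, Bnip3l and P4ha1, which are known targets of hypoxia. In the PGE2 group, 3 libraries came from cells given 100 nM PGE2 for 6 h, and in the vehicle group, 3 libraries came from cells given DMSO for the same time. All cells were splenic CD4+ T cells of C57BL/6 mice carrying Foxp3-DTR/EGFP, a reporter that marks Foxp3+ cells green, had 2 days of culture with anti-CD3, anti-CD28 and TGF-β, and were sorted on GFP after the treatment. The age of the mice and the oxygen level of the culture are not given in the labels, and they do not say whether the replicates are separate mice or cultures. The p-values therefore cover the spread among these libraries, which may be technical.

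HIF-1 is a dimer of the alpha subunit HIF-1α and the beta subunit ARNT. In oxygen, the prolyl hydroxylases EGLN1, EGLN2 and EGLN3 mark HIF-1α for the VHL ubiquitin ligase, which sends it to the proteasome, and the asparaginyl hydroxylase encoded by Hif1an blocks its contact with the coactivators p300 and CBP. Most control of HIF-1α is therefore known at the level of the protein, which RNA does not show. In T cells HIF-1α is known for raising glycolysis and for favouring Th17 over regulatory T cell differentiation. Egln1, Egln3, Bnip3 and P4ha1 are themselves known targets of HIF-1.

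HIF-1 binds the letters ACGTG or GCGTG, the core of the hypoxia response element, and the promoters of 5 members that were higher in every PGE2 library than in every vehicle library are shown for that reason. They are RefSeq windows on GRCm38.p6, 250 bases before to 50 bases after a start site, and capitals mark ACGTG and GCGTG on either strand. The windows are chr12:73907617-73907916 (+) for Hif1a, chr8:124949205-124949504 (-) for Egln1, chr12:54203825-54204124 (-) for Egln3, chr7:138909457-138909756 (-) for Bnip3 and chr10:59323046-59323345 (+) for P4ha1.
Hif1a: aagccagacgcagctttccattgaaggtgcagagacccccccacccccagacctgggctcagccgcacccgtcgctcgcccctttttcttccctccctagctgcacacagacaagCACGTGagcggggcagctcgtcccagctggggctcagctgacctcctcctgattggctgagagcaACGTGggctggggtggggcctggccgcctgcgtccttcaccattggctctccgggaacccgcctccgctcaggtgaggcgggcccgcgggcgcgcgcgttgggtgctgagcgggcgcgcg
Egln1: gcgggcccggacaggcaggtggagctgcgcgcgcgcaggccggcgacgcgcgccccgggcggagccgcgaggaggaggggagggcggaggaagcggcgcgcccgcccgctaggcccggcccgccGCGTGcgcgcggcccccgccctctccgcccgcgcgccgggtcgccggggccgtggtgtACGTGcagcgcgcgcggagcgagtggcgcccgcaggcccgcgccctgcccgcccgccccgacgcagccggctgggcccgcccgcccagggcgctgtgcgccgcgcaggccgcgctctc
Egln3: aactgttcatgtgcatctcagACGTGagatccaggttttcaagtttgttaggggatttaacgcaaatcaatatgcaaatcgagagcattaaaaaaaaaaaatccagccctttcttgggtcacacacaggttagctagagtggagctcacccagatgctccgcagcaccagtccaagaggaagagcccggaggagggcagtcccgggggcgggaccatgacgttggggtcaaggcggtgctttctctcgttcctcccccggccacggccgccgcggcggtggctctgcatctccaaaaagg
Bnip3: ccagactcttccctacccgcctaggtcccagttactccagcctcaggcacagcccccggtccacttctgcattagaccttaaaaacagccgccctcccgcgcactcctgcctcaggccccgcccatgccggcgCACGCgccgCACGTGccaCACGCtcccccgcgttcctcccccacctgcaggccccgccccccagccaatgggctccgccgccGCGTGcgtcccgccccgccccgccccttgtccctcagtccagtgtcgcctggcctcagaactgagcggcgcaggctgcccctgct
P4ha1: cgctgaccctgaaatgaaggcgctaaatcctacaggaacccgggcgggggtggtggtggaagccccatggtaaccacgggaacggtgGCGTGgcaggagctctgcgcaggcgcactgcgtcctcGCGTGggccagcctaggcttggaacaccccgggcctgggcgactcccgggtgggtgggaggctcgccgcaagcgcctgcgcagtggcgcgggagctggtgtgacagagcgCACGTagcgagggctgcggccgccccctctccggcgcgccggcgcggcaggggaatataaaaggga

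Bnip3 held 5 matches, of which 4 lie between 117 and 99 bases before its start or on the opposite strand at the same place, and 1.66% of 32851 RefSeq promoter windows held 5 or more. Hif1a held 3 and P4ha1 held 3, against 8.93% of windows with 3 or more, Egln1 held 2 and Egln3 held 1. The letters CACGTG, present in Hif1a and Bnip3, read as ACGTG on both strands and count as 2 matches. Windows were found for 9 of the 10 members, and 7 of these held ACGTG or GCGTG in at least 1 window, against 43.8% of all windows. The most matches, 6, were in a window of Egln2, whose FPKM overlapped between the groups, and its other window held 1. Arnt held 1, Hif1an and Vhl held none, and Bnip3l had no entry. TGACGTCA, the cAMP response element, was in 1.79% of all windows and, among the members, in Arnt, at 239 bases before the start. Its first 5 letters, TGACG, were in 20.8% of windows and, among the 5 printed, in that of Egln3. These matches are letters in a window and do not show binding.

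Levels are given in FPKM, a fragment count scaled to transcript length and library size. Depth, computed as coverage divided by FPKM in genes with 1 transcript, was 4.542 to 5.446 gigabases of fragments in the PGE2 libraries and 3.996 to 5.121 in the vehicle libraries, and replicate 3 was the shallowest in each group. Foxp3, Il2ra, Ctla4, Cd3e and Cd4, markers of regulatory and other CD4 T cells, summed to 1376 to 1483 FPKM with PGE2 and 1257 to 1330 FPKM with vehicle, and of these Ctla4 rose, at 345 FPKM with PGE2 and 199 FPKM with vehicle (adjusted p = 0.0076 with limma). B cell markers and erythroid and platelet markers were under 1 FPKM in every library, for 5 of 5 and 6 of 6 genes, as were 4 of 5 myeloid markers and 4 of 5 stromal and endothelial markers. The exceptions were Cd68, at 3.56 FPKM with PGE2 and 3.63 FPKM with vehicle, and Pecam1, at 11.4 and 9.82 FPKM. The 5 markers of NK and CD8 T cells summed to 8.46 to 11.1 FPKM with PGE2 and 6.19 to 8.06 FPKM with vehicle, without overlap, and their part in the results was not tested. Of these, Ncr1 and Klrb1c are listed at 0 throughout. Cd8b1, the highest of the 5, was at 5.31, 5.60 and 5.88 FPKM with PGE2 and 4.73, 4.96 and 4.68 FPKM with vehicle. The groups did not overlap for Cd8b1 (adjusted p = 0.45 with limma). Klrd1, an NK cell receptor gene also found on activated CD8 T cells, was at 2.54, 2.26 and 4.50 FPKM with PGE2 and 0.961, 0.627 and 2.78 FPKM with vehicle, with overlap and with replicate 3 the highest in each group. Its log2 change was 0.80 (SE 0.34, adjusted p = 0.38 with limma), and with the replicate number as a block it rose (adjusted p = 0.033). In such bulk samples, fewer cells of a type and less RNA per cell cannot be told apart.

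With PGE2, transcripts of the alpha subunit of HIF-1, of the prolyl hydroxylases Egln3 and Egln1, and of Bnip3, Bnip3l and P4ha1 were higher in all 3 libraries than in any vehicle library. Hif1a was 1.46-fold higher and Egln3 1.41-fold higher, the largest differences of the 10 over all 6 libraries. Their order turned without vehicle replicate 3 (log2 change 0.51 for Hif1a and 0.55 for Egln3). In FPKM, Vhl, Hif1an, Egln2 and Arnt overlapped between the groups. Of these, Arnt did not overlap in depth-scaled coverage or in the FPKM of its assembled locus. None of the 10 passed the test over all genes. Hif1a passed it when the libraries were compared within replicate numbers, but the labels do not say what same-numbered libraries share. That call was lost without number 2 or without number 3. All 10 genes were above 6 FPKM in every library and entered the test.

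By limma on log2(FPKM + 1) with Benjamini-Hochberg adjustment over 12113 tested genes, 0 of the 10 rose and 0 fell at an adjusted p under 0.05, against 0.57% of tested genes that rose and 0.239% that fell. The smallest absolute log2 change of any called gene was 0.49966, and of the 10 only Hif1a, at 0.545, was above it. The lack of calls therefore does not show that the 10 were unchanged. Before adjustment, 6 of the 10 had a p under 0.05 on the higher side and 0 on the lower side, against 5.46% and 7.59% of tested genes. The groups did not overlap for 6, all higher with PGE2, against 7.81% of tested genes that were higher and 11.9% that were lower without overlap. The log2 change was positive for 9 of the 10, against 43.3% of tested genes, and its median was 0.26 for the 10 and -0.03 for all tested genes. The 10 were chosen with earlier results of these data known, and the part of that choice in these counts was not tested.

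**Figure D1:**
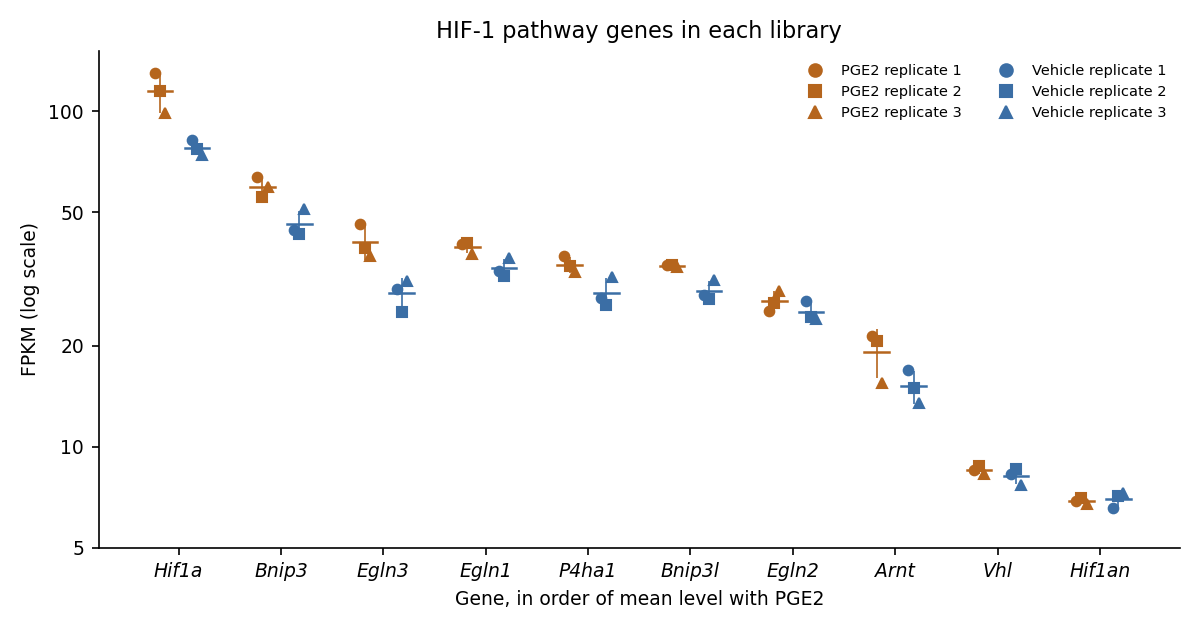
FPKM of the 10 genes in each library, on a log axis, with PGE2 left of vehicle for every gene; symbols give the replicate number, horizontal bars the mean and vertical bars the SD (n = 3). Hif1a stands at 98.9 to 130.5 FPKM with PGE2 and 74.3 to 82.0 FPKM with vehicle, and Vhl and Hif1an lie at the bottom with overlapping groups.

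Hif1a (ENSMUSG00000021109.13, protein coding, chromosome 12 from 73901375 to 73947530 of mm10, plus strand), the oxygen-regulated alpha subunit, was at 130.5, 115 and 98.9 FPKM in PGE2 replicates 1, 2 and 3 and at 82.0, 77.4 and 74.3 FPKM in vehicle replicates 1, 2 and 3. The lowest PGE2 library was above the highest vehicle library, and replicate 3 was the lowest in both groups. The means were 115 ± 15.8 FPKM with PGE2 and 77.9 ± 3.87 FPKM with vehicle (SD, n = 3 each). Its log2 change was 0.55 (SE 0.11, 95% interval 0.28 to 0.81, adjusted p = 0.092 with limma), which ranked 236 of 12113 by p. With the replicate number as a block it rose (log2 change 0.55, SE 0.08, adjusted p = 0.024 with limma). The block raised the share of all tested genes called higher to 1.77% and lower to 1.49%, and with it 1 of the 10, Hif1a, was called. The NK marker Klrd1 was called higher by the same blocked fit, and its part in the result was not tested.

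Read depth over Hif1a was 110 to 173 with PGE2 and 69.4 to 102 with vehicle, and the log2 change of depth-scaled coverage was 0.53 (SE 0.11). The annotated gene held 78.0% to 80.4% of the FPKM of the assembled locus with PGE2 and 76.6% to 82.6% with vehicle, the lowest shares among the members beside those of Arnt, and the locus itself gave 145 ± 21.2 and 98.7 ± 7.75 FPKM (log2 change 0.54). An antisense gene, Gm15283, overlaps the locus and was at 0.543 to 2.51 FPKM with PGE2 and 0.565 to 1.98 FPKM with vehicle. Gm49321, a gene on the same strand as Hif1a, also overlaps it, and its part in these values was not tested. The promoter window printed above starts inside the annotated span, and the values sum over all start sites of the gene. The block call of Hif1a depended on the libraries: without number 1 the adjusted p was 0.008, without number 2 it was 0.11 and without number 3 it was 0.063.

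Arnt (ENSMUSG00000015522.18, chromosome 3 from 95434388 to 95497240), the constitutive partner of HIF-1α, was at 21.4, 20.7 and 15.5 FPKM with PGE2 and 17.0, 15.0 and 13.5 FPKM with vehicle. PGE2 replicate 3 lay among the vehicle libraries, and replicate 3 was again the lowest in each group. Its log2 change of 0.32 (SE 0.14) did not pass (adjusted p = 0.41 with limma; 0.11 with the block). The Hif1a to Arnt ratio of FPKM was 6.10, 5.55 and 6.37 with PGE2 and 4.84, 5.16 and 5.49 with vehicle, without overlap. The exact two-sided permutation test gave p = 0.1, the smallest that 3 libraries against 3 allow, and 0.2 after adjustment over the 4 ratios compared. Of the other subunits, Epas1, the HIF-2α gene, was at 0.600 ± 0.235 and 0.435 ± 0.159 FPKM with PGE2 and vehicle, Hif3a at 0.505 ± 0.2 and 0.761 ± 0.0695 FPKM, and Arnt2 at 0.0702 ± 0.0483 and 0.0902 ± 0.0628 FPKM, all below the mean of 1 FPKM needed for the test.

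The 3 prolyl hydroxylases differed in how far they stood apart. Egln3 (ENSMUSG00000035105.5, chromosome 12 from 54178981 to 54203860, minus strand), the hydroxylase most strongly induced by hypoxia, was at 46.1, 39.1 and 37.0 FPKM with PGE2 and 29.6, 25.2 and 31.1 FPKM with vehicle. All PGE2 libraries lay above all vehicle libraries. Its log2 change was 0.49 (SE 0.12, 95% interval 0.21 to 0.77, adjusted p = 0.13 with limma), and adjusted p was 0.054 with the block. Egln3 has 1 annotated transcript, so its depth-scaled coverage equals its FPKM by construction and is no separate check. Its read depth was 168 to 251 with PGE2 and 124 to 152 with vehicle.

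Egln1 (ENSMUSG00000031987.5, chromosome 8 from 124908596 to 124949254, minus strand), the main hydroxylase of HIF-1α in normal oxygen, was at 40.1, 40.6 and 37.7 FPKM with PGE2 and 33.5, 32.2 and 36.6 FPKM with vehicle. The groups were apart by about 1 FPKM between PGE2 replicate 3 and vehicle replicate 3. Its log2 change was 0.20 (SE 0.08, adjusted p = 0.36 with limma). Egln2 (ENSMUSG00000058709.11, chromosome 7 from 27158658 to 27166802, minus strand), the remaining member of the family, was at 25.4, 26.9 and 29.2 FPKM with PGE2 and 27.3, 24.4 and 24.0 FPKM with vehicle, with overlap. Its log2 change was 0.10 (95% interval -0.11 to 0.32, adjusted p = 0.72 with limma).

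The balance of the family was set out as ratios of FPKM within each library. Egln3 over Egln1 was 1.15, 0.963 and 0.982 with PGE2 and 0.884, 0.782 and 0.851 with vehicle, without overlap (exact permutation p = 0.1, two-sided, adjusted 0.2). Egln3 over Egln2 was 1.81, 1.45 and 1.27 with PGE2 and 1.09, 1.03 and 1.30 with vehicle, where PGE2 replicate 3 lay below vehicle replicate 3 (exact permutation p = 0.2). With vehicle, mean FPKM ran in the order Egln1, Egln3, Egln2, and the ranges of Egln3 and Egln2 overlapped. With PGE2 it ran Egln3, Egln1, Egln2, and the ranges of Egln3 and Egln1 overlapped.

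Vhl (ENSMUSG00000033933.13, chromosome 6 from 113623959 to 113631633), the subunit that recognises hydroxylated HIF-1α, was at 8.55, 8.76 and 8.28 FPKM with PGE2 and 8.33, 8.59 and 7.71 FPKM with vehicle. The groups overlapped, and the log2 change of 0.05 had a 95% interval of -0.15 to 0.25 (adjusted p = 0.88 with limma). Hif1an (ENSMUSG00000036450.4, chromosome 19 from 44562850 to 44576274), the asparaginyl hydroxylase, was at 6.91, 7.04 and 6.74 FPKM with PGE2 and 6.59, 7.12 and 7.30 FPKM with vehicle. It was the 1 member with a negative log2 change, -0.02 (95% interval -0.22 to 0.18, adjusted p = 0.95 with limma), and the sign turned when each library was rescaled by its median ratio (0.01). The 95% intervals of Vhl and Hif1an end below the 1.46-fold estimate of Hif1a, as do those of Egln1, Egln2, Bnip3l and P4ha1. That estimate itself has a 95% interval of 1.21-fold to 1.76-fold.

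Bnip3 (ENSMUSG00000078566.8, chromosome 7 from 138890836 to 138909519, minus strand), a mitochondrial outer membrane protein that recruits the autophagy machinery, was at 63.8, 55.7 and 59.4 FPKM with PGE2 and 44.2, 43.2 and 51.2 FPKM with vehicle. The groups did not overlap, and vehicle replicate 3 was the closest to the PGE2 libraries. The log2 change of Bnip3 was 0.36 (SE 0.10, adjusted p = 0.17 with limma; 0.081 with the block). Bnip3l (ENSMUSG00000022051.15, chromosome 14 from 66985239 to 67008877, minus strand), its relative NIX, was at 34.7, 34.7 and 34.3 FPKM with PGE2 and 28.4, 27.5 and 31.4 FPKM with vehicle. The PGE2 libraries lay within 1 FPKM of each other, above every vehicle library (log2 change 0.24, SE 0.08, adjusted p = 0.26 with limma). A processed pseudogene, Bnip3l-ps, was at 7.19 to 8.78 FPKM with PGE2 and 6.73 to 7.52 FPKM with vehicle, and reads of the gene and the pseudogene may be shared. The ratio of Bnip3 to Bnip3l was 1.84, 1.60 and 1.73 with PGE2 and 1.56, 1.57 and 1.63 with vehicle (exact permutation p = 0.2, two-sided).

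P4ha1 (ENSMUSG00000019916.14, chromosome 10 from 59323296 to 59373304), the catalytic subunit of collagen prolyl 4-hydroxylase, was at 37.0, 34.6 and 33.1 FPKM with PGE2 and 27.7, 26.5 and 32.2 FPKM with vehicle. The groups did not overlap, but replicate 3 of each group differed by less than 1 FPKM. For P4ha1 the log2 change was 0.27 (SE 0.10, adjusted p = 0.30 with limma).

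**Figure D2:**
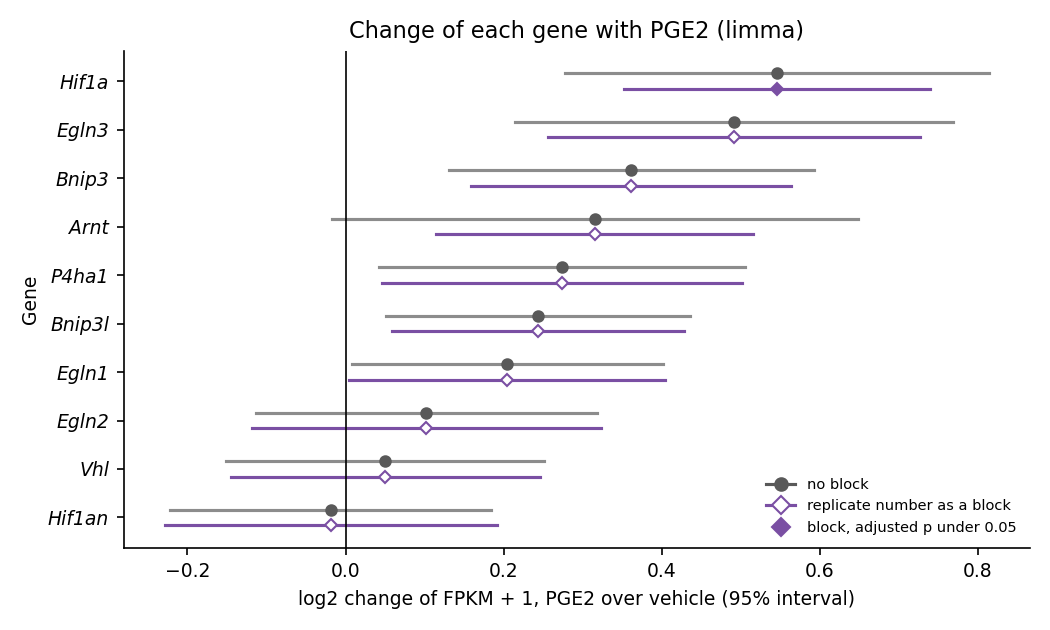
log2 change of each gene, PGE2 over vehicle, on the log2(FPKM + 1) scale, with 95% intervals from limma; circles are without and diamonds with the replicate number as a block, and a filled diamond marks an adjusted p under 0.05. Hif1a, at 0.55, is the 1 filled diamond, and the intervals of Egln2, Vhl and Hif1an span 0 in both fits.

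Across the 10 genes, FPKM in the PGE2 libraries ran from 115 for Hif1a to 6.90 for Hif1an, and in the vehicle libraries from 77.9 to 7.01 for the same genes. Hif1a and Bnip3 held the first places and Egln2, Arnt, Vhl and Hif1an the last in both groups. Between them, the ranges of Egln3 and Egln1, and of P4ha1 and Bnip3l, overlapped with PGE2. With vehicle the ranges of Bnip3l and P4ha1, of P4ha1 and Egln3, and of Egln3 and Egln2 overlapped, and the other neighbours in the order were apart in all 3 libraries. Of the members, Egln3 took the largest step in that order, number 3 with PGE2 and number 6 with vehicle.

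The difference between same-numbered libraries was positive in all 3 numbers for 8 of the 10 genes, the exceptions being Egln2 and Hif1an. Taken with its sign, it was lowest in number 3 for 8 of the 10. Among these was Hif1an at -0.10, its largest difference in size. Neither count was made over all tested genes, so neither is read as particular to the 10. For Hif1a the difference was 0.66, 0.57 and 0.41 on the log2 scale in numbers 1, 2 and 3. For Egln3 it was 0.62, 0.61 and 0.24, and for P4ha1 0.41, 0.37 and 0.04. Number 3 was also the shallowest in each group, and the part of depth in these differences was not tested.

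**Figure D3:**
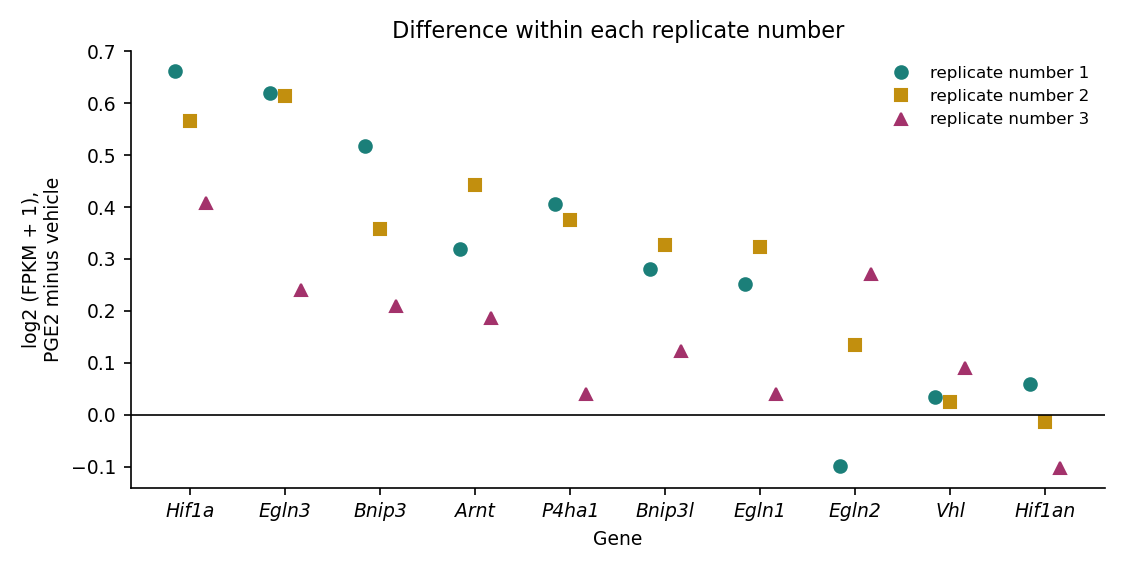
Difference in log2(FPKM + 1) between the PGE2 and the vehicle library of the same replicate number, for each of the 10 genes. Number 3, drawn as triangles, is the lowest for 8 genes; Egln2 and Hif1an have values on both sides of 0, from -0.10 to 0.27 and from -0.10 to 0.06.

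Other genes of the pathway were read from 7 lists with 76 genes, of which 62 were tested. Of the 62, 0 rose and 0 fell by limma, against 0.57% and 0.239% of all tested genes. With the replicate block 3 rose, namely Slc16a3, Slc2a3 and Ndrg1. Before adjustment, p was under 0.05 for 12 of the 62 on the higher side and 2 on the lower side, against 5.46% and 7.59% of all tested genes, and the block called 1.77% of all tested genes higher. Slc16a3, the lactate exporter MCT4, was at 41.1, 41.9 and 58.5 FPKM with PGE2 and 22.7, 19.9 and 32.2 FPKM with vehicle, without overlap. The log2 change of Slc16a3 was 0.90 (SE 0.20, adjusted p = 0.11 with limma; SE 0.08 and adjusted p = 0.0054 with the block). It passed with the block without any 1 number, at adjusted p of up to 0.029. Ndrg1, a stress-response gene induced by hypoxia, was at 8.51, 6.92 and 6.90 FPKM with PGE2 and 5.68, 4.38 and 4.95 FPKM with vehicle (log2 change 0.49, adjusted p = 0.14 with limma; 0.042 with the block). The block call of Ndrg1 was lost without number 2 (adjusted p = 0.24) or number 3 (0.09).

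Both transporters and Ndrg1 come from lists of hypoxia targets. Of 20 tested targets outside glycolysis, 15 had a positive log2 change, 0 rose and 0 fell by limma, and 2, Slc16a3 and Ndrg1, rose with the block. The median was 0.13. Among all tested genes, 43.3% had a positive log2 change, 0.57% rose and 0.239% fell by limma, and 1.77% rose with the block. Mif, a cytokine and the highest of this list, was at 482 ± 61.4 FPKM with PGE2 and 448 ± 48.9 FPKM with vehicle (adjusted p = 0.82 with limma). At an unadjusted p under 0.05, Kdm3a, a histone demethylase gene, was also higher, at 27.3 ± 3.95 FPKM with PGE2 and 21.6 ± 1.89 FPKM with vehicle. Car12, a carbonic anhydrase, was lower, at 3.49 ± 0.686 FPKM with PGE2 and 5.40 ± 0.183 FPKM with vehicle (log2 change -0.52, SE 0.13, adjusted p = 0.14 with limma). Tfrc, the transferrin receptor, was lower at 110 ± 5.79 FPKM with PGE2 and 137 ± 15.3 FPKM with vehicle (log2 change -0.31, SE 0.11, adjusted p = 0.26). Kdm3a, Car12 and Tfrc were chosen after their values were seen.

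Of 19 tested hypoxia targets in glycolysis, 19 had a positive log2 change with a median of 0.24, 0 rose by limma, and 1, Slc2a3, rose with the block. Over all tested genes, 43.3% had a positive log2 change, 0.57% rose by limma and 1.77% rose with the block. Slc2a3, the glucose transporter GLUT3, was at 17.5, 15.7 and 14.6 FPKM with PGE2 and 10.8, 8.76 and 10.9 FPKM with vehicle (log2 change 0.61, SE 0.11, adjusted p = 0.068 with limma; 0.032 with the block). Its block call was lost without number 2 (adjusted p = 0.14). Slc2a1, the transporter GLUT1, was at 56.6 ± 2.27 FPKM with PGE2 and 43.2 ± 2.35 FPKM with vehicle (adjusted p = 0.095 with limma; 0.0504 with the block). Ldha, lactate dehydrogenase A and the highest of this list, was at 1067 ± 51.4 FPKM with PGE2 and 903 ± 48.9 FPKM with vehicle, without overlap (log2 change 0.24, adjusted p = 0.38 with limma).

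**Figure D4:**
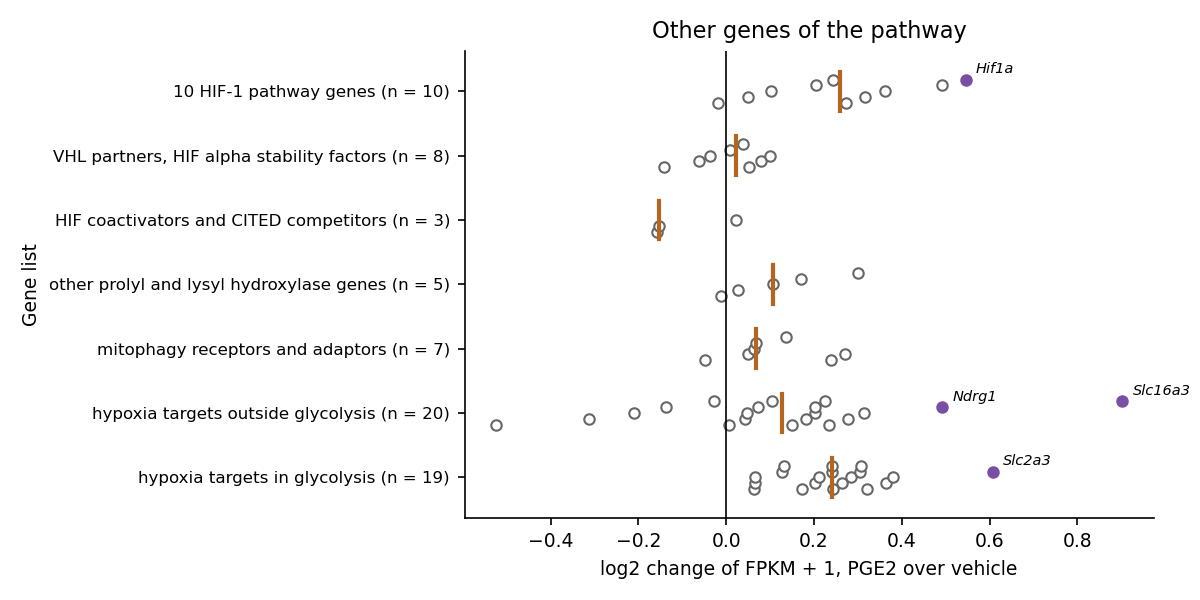
log2 change of each tested gene, PGE2 over vehicle, for the 10 genes and for 6 of the 7 pathway lists; the list of other subunits had no tested gene. Orange bars are medians, and filled circles passed with the replicate block. Hif1a, Slc16a3, Ndrg1 and Slc2a3 are filled, and the VHL partners lie close to 0 with a median of 0.02.

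Genes that act on HIF-1α or beside it showed no call in either fit. Over all tested genes, 0.57% rose and 0.239% fell by limma, and 1.77% rose and 1.49% fell with the block. At such shares a list this short would mostly hold no call. Of 8 VHL ligase partners and other stability factors, 5 had a positive and 3 a negative log2 change. Tceb2 (elongin B), the highest, was at 254 ± 27.3 FPKM with PGE2 and 239 ± 11.7 FPKM with vehicle, Os9 at 41.2 ± 5.20 and 38.3 ± 4.35 FPKM, and Siah2, a ubiquitin ligase that acts on prolyl hydroxylases, at 6.21 ± 1.21 and 7.01 ± 1.69 FPKM. Among the 3 tested coactivator and competitor genes, Cited2, which competes with HIF-1α for p300, was at 28.9 ± 1.03 FPKM with PGE2 and 28.5 ± 3.06 FPKM with vehicle. Crebbp was at 6.12 ± 1.35 and 6.84 ± 0.373 FPKM and Ep300 at 11.0 ± 2.73 and 12.1 ± 0.325 FPKM.

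Relatives of P4ha1 and of the mitophagy receptors were likewise without a call, against the same small shares of all tested genes. Of 5 tested prolyl and lysyl hydroxylase genes, P4hb, the beta subunit that pairs with P4HA1, was at 123 ± 7.34 FPKM with PGE2 and 114 ± 3.07 FPKM with vehicle. Plod2, a collagen lysyl hydroxylase gene induced by hypoxia, was at 6.85 ± 0.852 and 5.38 ± 0.764 FPKM (log2 change 0.30, adjusted p = 0.38 with limma), and P4htm at 2.48 ± 0.47 and 2.09 ± 0.388 FPKM. Of 7 tested mitophagy genes 6 had a positive log2 change, with a median of 0.07. Sqstm1, an autophagy adaptor, was at 102 ± 5.86 FPKM with PGE2 and 98.4 ± 11.0 FPKM with vehicle, Map1lc3b, the LC3B gene, at 39.0 ± 1.29 and 33.0 ± 3.77 FPKM (adjusted p = 0.38), and Pink1, a mitophagy kinase gene, at 21.6 ± 0.996 and 17.9 ± 2.90 FPKM (adjusted p = 0.40).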

How the data were processed

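RNA of 6 libraries from sorted Foxp3+ iTreg was prepared with a stranded mRNA kit per the labels' protocols. The tools named are Trim Galore and HISAT2, with build mm10, per the submitters' processing notes. Their versions, the annotation, strand use and the quantifier were not given in the sources used here. FPKM, as deposited, carries the authors' scaling to transcript length and library size. The deposited coverage is the authors' mean read depth (a signal). TPM as deposited counts assembled loci and annotated genes together, so it was entered as a score and not analysed.

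Of 47643 annotated genes, the 12113 whose mean reached 1 FPKM were tested by limma 3.58.1 (R 4.3.3) with a mean-variance trend on log2(FPKM + 1), a scale that understates changes of low genes. Tests were two-sided with Benjamini-Hochberg adjustment and a threshold of 0.05. Whole counts were not at hand, so no counting interval was computed. Ratios were tested with exact permutation in scipy 1.17.1. The procedure was tested on simulated data.

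Same-numbered libraries deviated together from their group means (correlations of 0.227, 0.312 and 0.529 across genes for numbers 1, 2 and 3, taken from the titles). Each was over 0.1, the bound set for reading the numbers as pairs, and the blocked value is given where it changes a call. Numbers 1 and 2 were not told apart by this check. PGE2 replicate 1 correlated at 0.271 with vehicle replicate 2, and PGE2 replicate 2 at 0.149 with vehicle replicate 1. Both values were also over 0.1, so the bound did not set same-numbered libraries apart. Only number 3, the shallowest in each group, stood apart, below 0 with every other number. The pairing was read from the same data as the calls, and the labels do not say what same-numbered libraries share. Egln1 carries an older version and span than GENCODE release M21; the other 9 members had the same start and end. Tceb2 and Tceb1 are the older symbols of elongins B and C, and Park2 of parkin.

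The members and lists were chosen with earlier results of these data known. Beside the members, each pathway list gave up to 4 called genes or, with none, its highest gene and up to 2 with the smallest p.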

Additional observations from a re-analysis of the deposited data

How the results depend on the processing

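With no replicate block, 0 of the 10 genes were called under a pseudocount of 0.1 FPKM, no filter, a filter of 5 FPKM, coverage in place of FPKM, median ratio scaling and the assembled loci (chosen after seeing the data), and 0 to 0 without any 1 library. With the replicate block 1 was called higher. Over all genes, 98 were called; the number was 45 with no filter, 159 with coverage, 395 with the replicate block, and 22 to 69 without 1 library (35, 22 and 53 without PGE2 replicates 1, 2 and 3, and 40, 33 and 69 without vehicle replicates 1, 2 and 3). The share of calls that were higher was 70.4%, and 54.4% with the block. The log2 change of Hif1a ranged from 0.45 to 0.65 without 1 library (adjusted p 0.08 to 0.30) and that of Egln3 from 0.40 to 0.56 (adjusted p 0.13 to 0.39); Egln3 was above Hif1a without vehicle replicate 3 (0.55 and 0.51) and in the block without number 3 (0.616 and 0.614). The replicate block without 1 number (chosen after seeing the data) leaves 4 libraries; Egln3 passed there without number 1 (adjusted p = 0.039), and all genes called numbered 963, 151 and 115 without numbers 1, 2 and 3. Hif1an ranged from -0.056 to 0.0085 without 1 library and reversed to 0.011 with median ratio scaling, 0.0085 without vehicle replicate 3 and 0.023 with the block without number 3; the cause was not tested. The block changed no other call among the 10 genes. Of the named list genes it changed those of Klrd1, Slc16a3, Slc2a3 and Ndrg1, and for the last 3 the log2 changes without 1 library were 0.74 to 1.09, 0.51 to 0.66 and 0.40 to 0.57.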

Other observations

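Several transcripts that are classical markers of hypoxia in other tissues were at low levels in these cells. Car9, a carbonic anhydrase, was at 0.328 ± 0.0328 FPKM with PGE2 and 0.363 ± 0.0931 FPKM with vehicle (SD, n = 3 each), Adm, adrenomedullin, at 0.0549 ± 0.024 and 0.0621 ± 0.0307 FPKM, and Nos2, the inducible nitric oxide synthase, at 0.0611 ± 0.0384 and 0.0603 ± 0.0477 FPKM. Angptl4, an inhibitor of lipoprotein lipase, was at 0.655 ± 0.155 FPKM with PGE2 and 0.984 ± 0.152 FPKM with vehicle. All 4 lie under the mean of 1 FPKM and were not tested; they were chosen after their values were seen. Vegfa, the vascular growth factor, was at 15.1 ± 2.30 FPKM with PGE2 and 14.6 ± 2.17 FPKM with vehicle (adjusted p = 0.93 with limma).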
